A study of Onthophagus taurus with 15 samples.

Results

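Among 3840 spotted clones of the horned dung beetle Onthophagus taurus, 73 had higher ratios in both horns than in legs. They were chosen by their measured values among the 3182 clones with a value on all 15 arrays. For each tissue the mean over arrays A, C and E and the mean over arrays B and D were averaged, which gives both dye layouts equal weight. A clone was taken when head horn minus legs and thoracic horn minus legs were both 0.8 or more, each difference was positive in at least 4 of 5 same-letter pairs, and the horns differed by less than 0.8. These differences are therefore a description of the choice and not a finding, and no test of them is used as support. The 73 clones were then divided into those raised in the horns and those lowered in the legs, both against abdomen.

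Head horn, thoracic horn and legs were dissected from large male pupae of a laboratory colony within 24 h of pupation. Each of these 3 tissues was hybridised against dorsal abdominal epithelium on 5 arrays, lettered A to E. The series design describes every RNA sample as a pool of 4 pupae, with the same pupae behind both channels of an array. The RNA was amplified by T7 in vitro transcription and labelled with Cy3 or Cy5. Cy3 marked the appendage on the 3 arrays A, C and E of a tissue, and Cy5 marked it on the 2 arrays B and D.

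Onthophagus horns are outgrowths of the body wall that lack the joints and muscles of a limb. Large males carry a long pair of head horns into adulthood, whereas the thoracic horn of this species is a pupal structure that is resorbed before the adult emerges. Legs are jointed limbs with muscles, tendons and sense organs, and parts of the network that patterns insect legs are also used in beetle horns.

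The deposited values were read as log2 ratios. A positive ratio is likely to mean a higher level in the appendage than in abdomen, since the titles and the design name the appendage first and it is always the first channel. The deposited files do not settle this direction. If it were turned, the 73 clones would be lower in both horns than in legs, the class raised in both horns would be lowered in both, and the class lowered in legs would be raised in legs. The clones carry library names only, with the prefixes OtL and OtP. None of the 3840 names (0) matched the 16956 entries of the RefSeq gene table, so no function, sequence or tissue marker is given here, and the tissue labels were not checked against marker genes. Several clones can come from 1 transcript. In such bulk samples, fewer cells of a type and less RNA per cell cannot be told apart.

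Values were complete for 82.9% of the clones, and the median ratio of an array lay between -0.07 and 0.15. Arrays of the same tissue and layout correlated at 0.60 to 0.72 over all clones, and arrays of opposite layout at 0.25 to 0.50. Array D lacked a value for 295 to 329 clones in each tissue, against 32 to 120 on the other arrays. None of the 73 clones has an empty value, which the rule ensured.

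The 73 clones made up 2.29% of the complete clones. Applied with the sign turned, the same rule found 80 clones higher in legs than in both horns. The median of the 73 clones was 0.42 in head horn and 0.52 in thoracic horn, against -0.73 in legs. Over all complete clones these medians were 0.03, 0.02 and 0.07. Head horn minus legs had a median of 1.14 (0.81 to 3.34) and thoracic horn minus legs a median of 1.11 (0.80 to 3.43). Both differences reached 2-fold in 34 clones and 4-fold in 5. The thoracic horn had the higher ratio in 37 of the 73 clones, and the difference between the horns had a median of -0.00 (-0.72 to 0.67). No horn-to-horn difference was called for a member (0 by limma at adjusted p under 0.05, against 0.874% of all clones tested), which the limit of 0.8 on that difference makes likely.

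**Figure D1:**
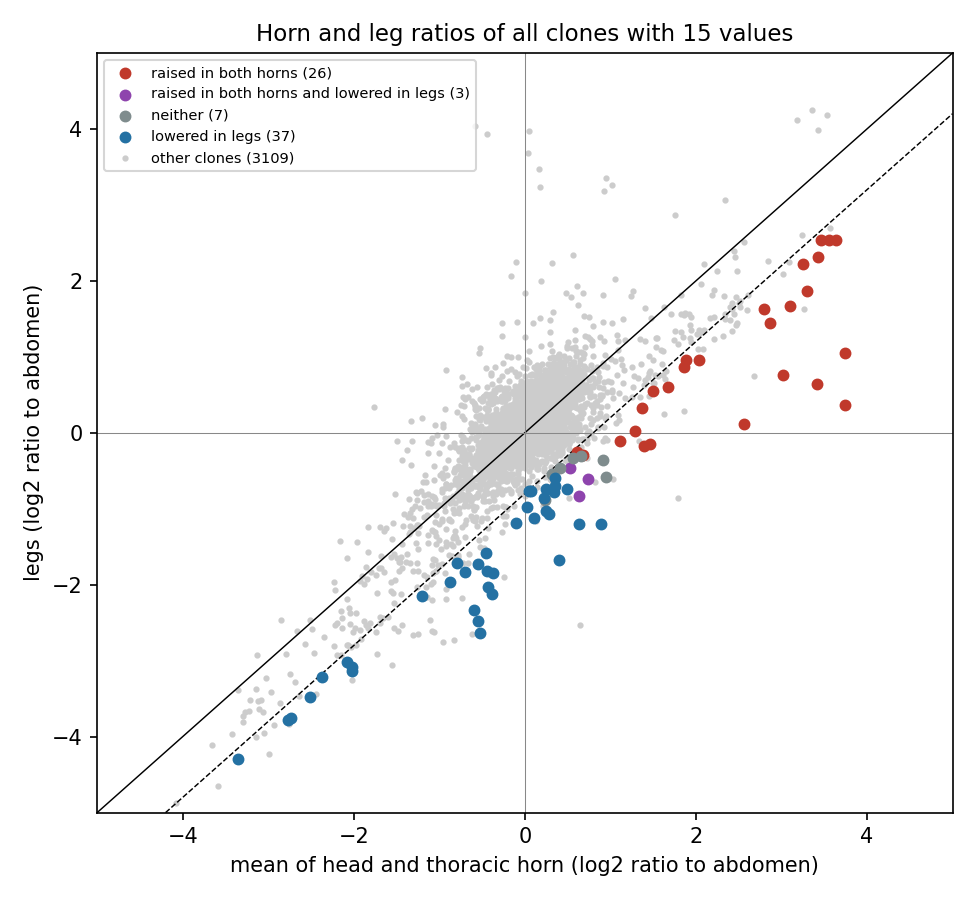
Mean of the head and thoracic horn ratios (horizontal axis) against the legs ratio (vertical axis), both log2 against abdomen, for all 3182 complete clones, with the 73 clones in colour by class. The solid line marks equal values and the dashed line a difference of 0.8, below or on which the 73 clones lie.

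Array by array, the median over the 73 clones was 0.09 to 0.74 on the head horn arrays and 0.37 to 0.79 on the thoracic horn arrays, against -0.97 to -0.29 on the leg arrays. Every horn array thus had a higher median than every leg array. The median same-letter difference between head horn and legs lay between 1.16 on letter D and 1.46 on letter E. That between thoracic horn and legs lay between 0.96 on letter B and 1.45 on letter A. A positive difference was seen in all 10 same-letter pairs for 66 of the 73 clones. In 26 clones the lowest of the 10 horn ratios lay above the highest of the 5 leg ratios, and in the other 47 the ranges overlapped. The rule favours both outcomes. No share over all complete clones is given for either count, and nothing is read from them.

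**Figure D2:**
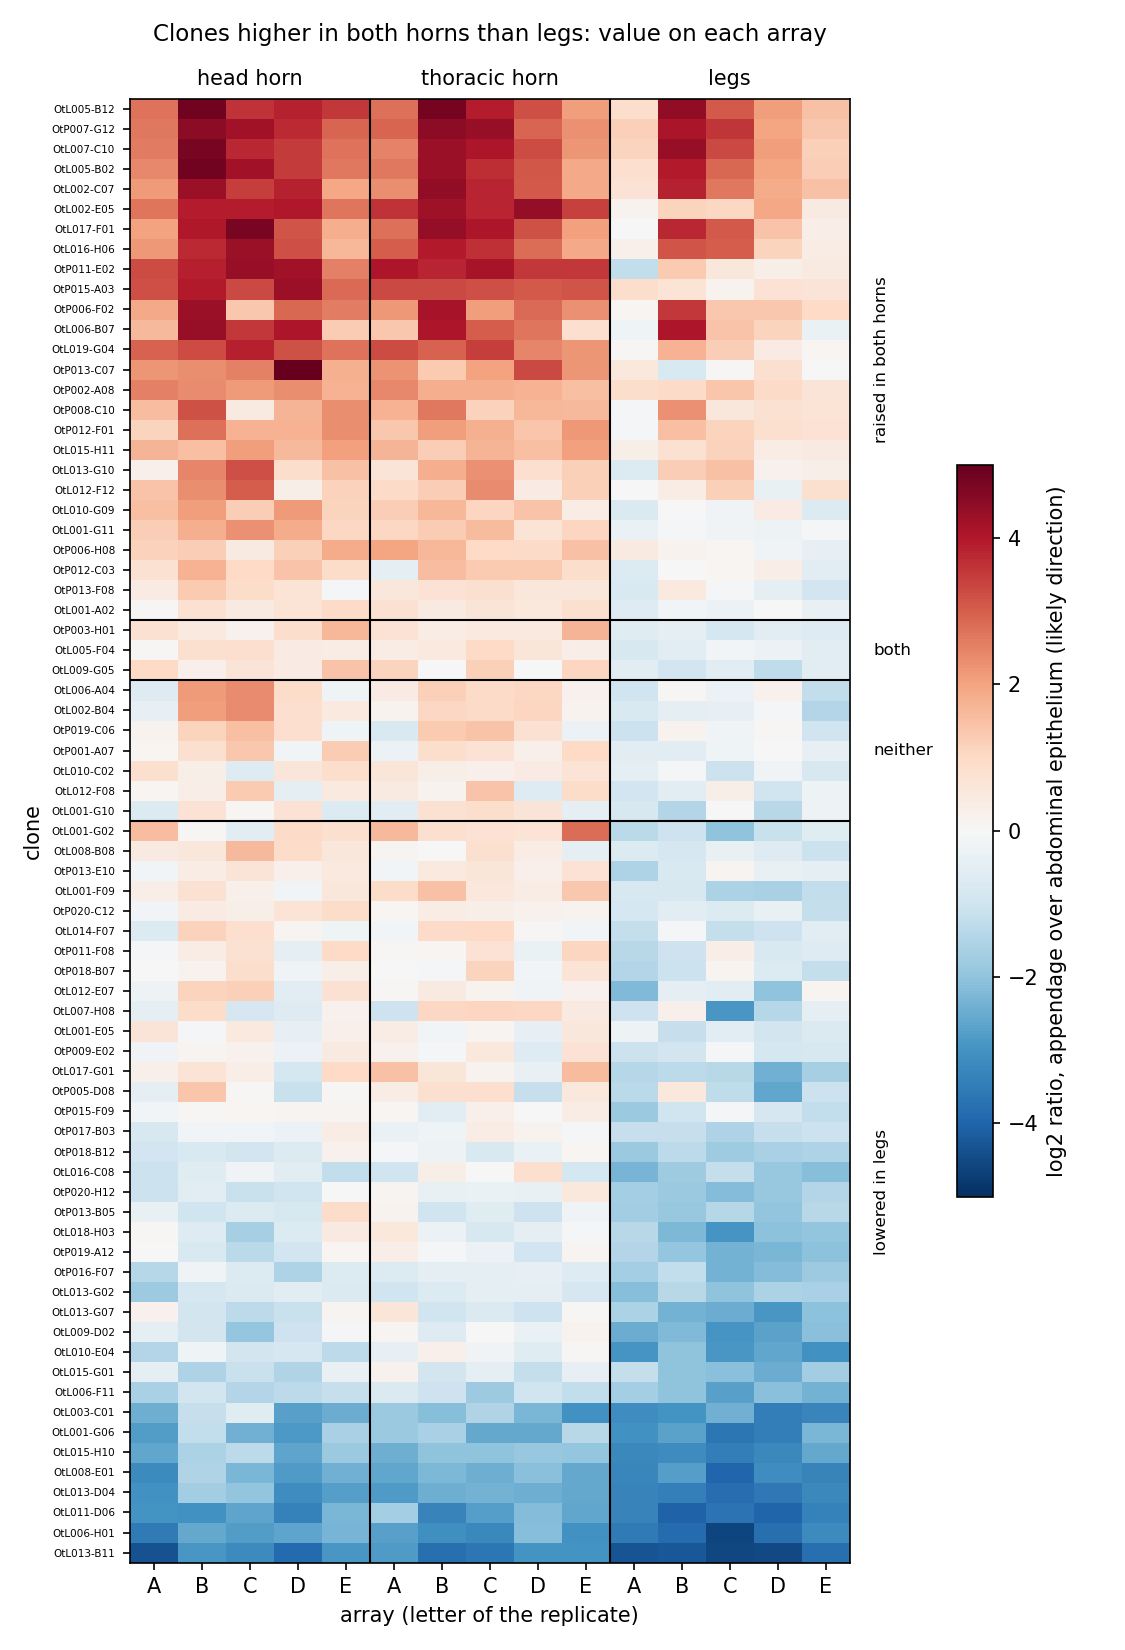
Deposited log2 ratios of the 73 clones (rows, grouped by class) on the 15 arrays (columns, by tissue and letter), with red above and blue below abdomen. The clones raised in both horns are mostly red in the horn columns and mostly paler in the leg columns. Those lowered in legs are mostly blue in the leg columns. Some of their leg arrays lie above abdomen, such as legs B of OtP005-D08 at 0.54.

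Against abdomen, 29 of the 73 clones were called higher in both head and thoracic horn (limma, adjusted p under 0.05), where 12.0% of all 3777 clones tested were. Legs were called lower than abdomen in 40 of the 73, where 17.6% of all clones tested were. These shares follow in part from the rule, which used the same arrays, and nothing is read from them. They sort the clones into 26 raised in both horns, 37 lowered in legs, 3 that were both and 7 that were neither.

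The 26 clones raised in both horns had high ratios in the horns and, in most of them, smaller positive ratios in legs. Their median was 2.83 in head horn (0.61 to 3.81) and 2.39 in thoracic horn (0.61 to 3.97), against 0.81 in legs (-0.30 to 2.54). Legs were called higher than abdomen as well in 16 of them and were not called in the other 10. The share of all clones tested with legs called higher is not given, and nothing is read from these counts. Head horn had the higher ratio of the horns in 19 of the 26 clones. Head horn minus legs had a median of 1.28, and thoracic horn minus legs a median of 1.05.

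OtP011-E02 had the largest smaller difference of all 73 clones. Its ratio was 3.25, 3.89, 4.34, 4.19 and 2.52 in head horn (arrays A to E), 4.03, 3.82, 4.13, 3.55 and 3.54 in thoracic horn, against -1.21, 1.31, 0.55, 0.27 and 0.46 in legs. The lowest horn array, head horn E, stood above the highest leg array, legs B, and legs A alone lay below abdomen. The dye-balanced ratio was 10.1-fold higher in head horn than in legs (3.34 ± 1.0) and 10.8-fold higher in thoracic horn than in legs (3.43 ± 1.03; here and below, the SD of the 5 same-letter differences follows the dye-balanced difference).

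OtP015-A03 had little spread between arrays in thoracic horn and legs. Its ratio was 3.23, 3.97, 3.29, 4.28 and 2.82 in head horn, 3.29, 3.32, 3.22, 3.08 and 3.16 in thoracic horn, against 0.87, 0.69, 0.18, 0.73 and 0.66 in legs. All 5 leg arrays lay above abdomen, yet below every horn array. The differences from legs were 2.98 ± 0.60 for head horn and 2.57 ± 0.27 for thoracic horn (n = 5).

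OtL002-E05 had the highest thoracic horn ratio of the 73 clones. Its ratio was 2.66, 3.92, 3.92, 4.01 and 2.66 in head horn, 3.62, 4.23, 3.81, 4.41 and 3.42 in thoracic horn, against 0.18, 1.13, 1.02, 1.95 and 0.46 in legs. Arrays B and D were the highest in thoracic horn and legs, and the horn and leg ranges did not overlap. Its dye layout term, the ratio with the appendage in Cy5 minus that with the appendage in Cy3, was 0.86 (adjusted p = 0.0133 by limma, and 0.0812 once arrays of one letter share a random block).

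The other members with 4-fold differences were OtP013-C07 and OtL019-G04. In OtP013-C07 the ratio was 2.21, 2.31, 2.51, 4.97 and 1.78 in head horn, 2.25, 1.30, 2.01, 3.32 and 2.19 in thoracic horn, against 0.52, -0.76, 0.06, 0.81 and 0.01 in legs. Array D was the highest in each tissue, and head horn D stood far above the other head horn arrays. In OtL019-G04 the ratio was 2.96, 3.26, 3.88, 3.17 and 2.71 in head horn, 3.27, 2.95, 3.47, 2.43 and 2.21 in thoracic horn, against 0.04, 1.73, 1.23, 0.41 and 0.09 in legs. Legs varied most here, with arrays B and C high, and did not reach the lowest horn array.

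OtL010-G09 had lower horn ratios than these clones. Its ratio was 1.50, 2.10, 1.24, 2.14 and 1.12 in head horn, 1.24, 1.67, 1.09, 1.43 and 0.37 in thoracic horn, against -0.72, 0.04, -0.17, 0.39 and -0.68 in legs. The highest leg array, D, was just above the lowest horn array, thoracic horn E. The head horn ratio was 3.62-fold and the thoracic horn ratio 2.60-fold that of legs.

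**Figure D3:**
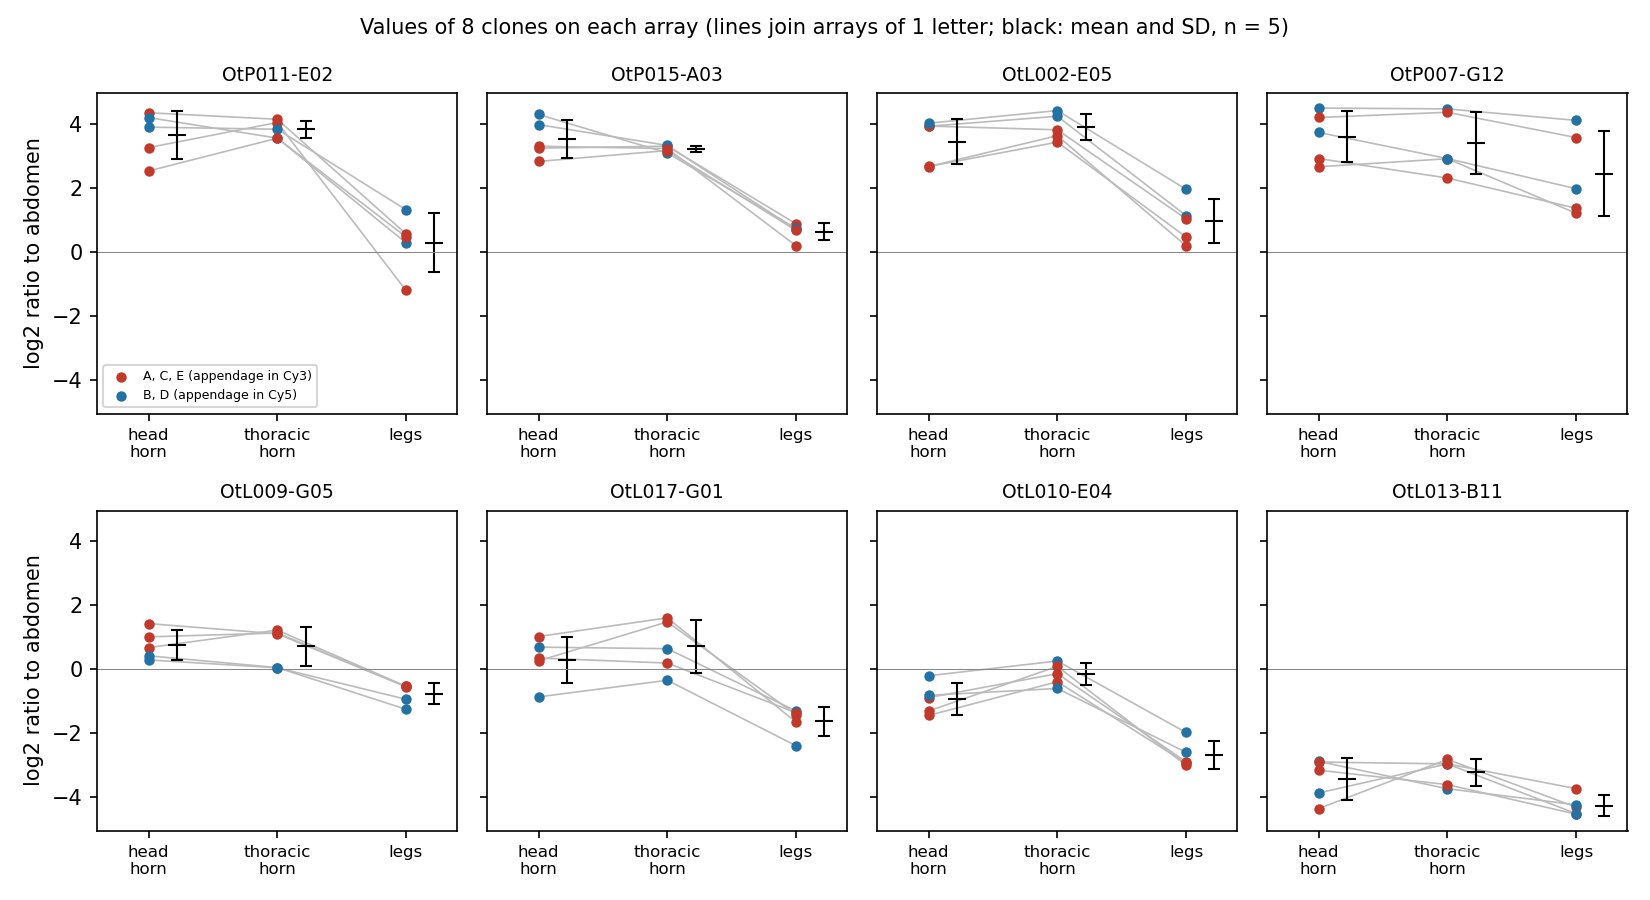
Log2 ratios against abdomen (vertical axis) of named clones in head horn, thoracic horn and legs, with 1 point per array in red (letters A, C and E) or blue (B and D), lines joining the arrays of 1 letter, and black bars for mean and SD (n = 5). In OtP011-E02 and OtP015-A03 all 10 horn points lie above all 5 leg points.

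Part of the raised class moved together from letter to letter. Deviations from the mean of each tissue and dye layout were correlated over the 15 arrays for every pair of clones. Since B and D are mirror images in these deviations, fewer than 15 values per clone are free. A group of 9 members was joined by correlations of 0.9 or more: OtL005-B12, OtP007-G12, OtL007-C10, OtL005-B02, OtL002-C07, OtL016-H06, OtL017-F01, OtL006-B07 and OtL019-G04. They included the 2 highest mean ratios of the 73 clones over the 3 tissues, OtL005-B12 at 3.27 ± 0.22 and OtP007-G12 at 3.22 ± 0.24 (fit ± SE), with adjusted p = 3.67e-08 and 9.58e-08 by limma. This fit took arrays of 1 letter as independent, although these clones moved together by letter. The SEs and p-values are therefore likely too small. The limit of 0.9 was set after the values were seen, because a limit of 0.8 chained 28 members into 1 group.

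In OtP007-G12 the ratio was 2.65, 4.49, 4.19, 3.72 and 2.91 in head horn, 2.90, 4.46, 4.35, 2.91 and 2.30 in thoracic horn, against 1.20, 4.10, 3.56, 1.97 and 1.35 in legs. Letters B and C were high and A and E low in every tissue, so that legs B exceeded head horn A although each horn array lay above the leg array of its own letter. Over the 9 clones the median leg ratio was 0.71 on A, 3.98 on B, 3.04 on C, 1.84 on D and 1.20 on E. Their median head horn minus legs difference was smallest on letter B, at 0.41, and largest on letter A, at 1.81. Of the 9 clones only OtL019-G04 (1) was called in both horn-minus-legs differences without a letter block, and 4 were called with it. No label says what else differed between the letters.

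The most alike pair of all was OtL016-H06 and OtL017-F01, with r = 0.99 over 15 arrays and a root mean square difference of 0.31 between their ratios. OtL016-H06 stood at 2.18, 3.75, 4.30, 3.21 and 1.64 in head horn, 3.02, 3.98, 3.64, 2.79 and 1.88 in thoracic horn, against 0.25, 3.13, 3.04, 1.11 and 0.39 in legs. OtL017-F01 stood at 2.0, 4.02, 4.73, 3.16 and 1.82 in head horn, 2.76, 4.41, 4.03, 3.17 and 2.05 in thoracic horn, against 0.01, 3.75, 3.06, 1.43 and 0.33 in legs. Next came OtL007-C10 with OtP007-G12 (r = 0.98, root mean square difference 0.25) and OtL005-B02 with OtP007-G12 (r = 0.98, 0.34), which pair clones of both prefixes. Whether such pairs are copies of 1 transcript cannot be read from clone names.

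**Figure D4:**
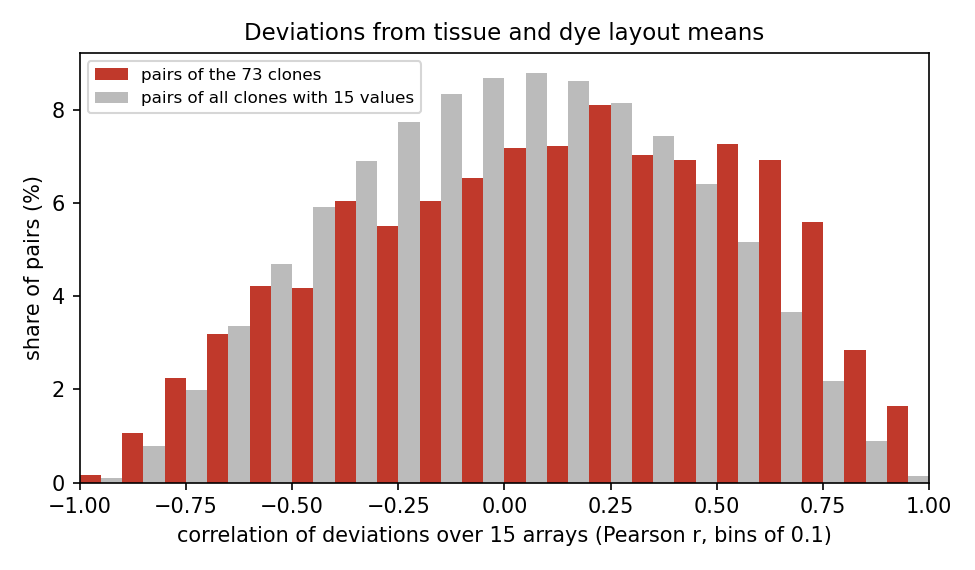
Share of clone pairs (vertical axis, percent) by the Pearson correlation of their deviations from tissue and dye layout means over 15 arrays (horizontal axis, bins of 0.1), for the 2628 pairs among the 73 clones (red) and for all pairs of complete clones (grey). Pairs among the 73 clones are more frequent at the right end, with 4.49% of them over 0.8, against 1.02% of all pairs.

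Over all pairs of the 73 clones the median correlation was 0.15, against 0.02 for all pairs of complete clones. Within the raised class the median was 0.35 and within the class lowered in legs 0.16. These correlations are descriptions, since the clones share arrays, pools and abdomen samples. At the limit of 0.9, 29 of the 73 clones fell into 10 groups, of which the next largest held 3 clones each. Among these was the group of OtP009-E02, OtP011-F08 and OtP013-E10, all lowered in legs. On legs C these 3 clones stood at -0.08, 0.35 and 0.12, above each of their other leg arrays, which lay between -1.54 and -0.37.

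The 37 clones lowered in legs covered a wide range, from near abdomen in the horns to far below it in every tissue. Their median was -0.64 in head horn (-3.44 to 0.82) and -0.18 in thoracic horn (-3.26 to 1.22), against -1.73 in legs (-4.30 to -0.60). In 13 of them neither horn was called against abdomen, and in 12 both were called lower as well. A single horn was called lower in another 8 and higher in the last 4. For these horn calls no share over all clones tested is given, and nothing is read from them. The thoracic horn had the higher ratio of the horns in 26 of the 37, against 7 of 26 in the raised class, a contrast that was not tested. Head horn minus legs had a median of 1.06, and thoracic horn minus legs a median of 1.15.

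OtL017-G01 led this class. Its ratio was 0.24, 0.67, 0.33, -0.88 and 1.0 in head horn, 1.46, 0.62, 0.17, -0.37 and 1.59 in thoracic horn, against -1.44, -1.32, -1.38, -2.41 and -1.67 in legs. Array D was the lowest in each tissue, and still the lowest horn array lay above the highest leg array. Legs were 3.71-fold below head horn (difference 1.89 ± 0.46) and 4.86-fold below thoracic horn (2.28 ± 0.71, n = 5).

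OtL010-E04 lay below abdomen on nearly every array. Its ratio was -1.46, -0.22, -0.91, -0.84 and -1.32 in head horn, -0.41, 0.24, -0.16, -0.62 and 0.07 in thoracic horn, against -2.95, -2.0, -2.91, -2.62 and -3.02 in legs. The order thoracic horn, head horn, legs held in each of the 5 letters. Its mean over the 3 tissues was -1.23 ± 0.09 (adjusted p = 9.82e-08 by limma without a letter block).

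OtL001-G02 and OtL001-F09 combined leg ratios below abdomen with thoracic horn ratios above it. OtL001-G02 stood at 1.56, 0.06, -0.54, 0.96 and 0.79 in head horn, 1.61, 0.81, 0.72, 0.67 and 2.79 in thoracic horn, against -1.34, -1.03, -2.0, -1.11 and -0.61 in legs. OtL001-F09 stood at 0.33, 0.75, 0.25, -0.12 and 0.58 in head horn, 0.92, 1.45, 0.54, 0.37 and 1.36 in thoracic horn, against -0.82, -0.80, -1.57, -1.61 and -1.22 in legs. In both clones every thoracic horn array was above abdomen, every leg array below it, and head horn was not called against abdomen.

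The remaining named clones among the first 8 of this class had dye-balanced ratios below abdomen in both horns and between -2.47 and -2.03 in legs. OtL013-G07, OtL018-H03, OtL009-D02 and OtP019-A12 differed from legs by 1.39 to 1.67 in head horn and by 1.80 to 2.28 in thoracic horn. OtL009-D02 had the largest gap between the horns of all 73 clones. Its ratio was -0.46, -0.92, -1.93, -1.05 and -0.12 in head horn, 0.15, -0.66, 0.01, -0.33 and 0.17 in thoracic horn, against -2.48, -2.19, -2.96, -2.69 and -2.07 in legs, so that legs lay below both horns on every array.

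The lowest of the 73 clones were OtL013-B11 and OtL006-H01. OtL013-B11 stood at -4.37, -2.90, -3.17, -3.88 and -2.92 in head horn, -2.84, -3.75, -3.63, -2.98 and -2.98 in thoracic horn, against -4.33, -4.26, -4.55, -4.53 and -3.75 in legs. All 15 arrays were far below abdomen, with a mean over the tissues of -3.67 ± 0.13 (adjusted p = 7.28e-11 by limma without a letter block), and head horn A lay as low as legs. OtL006-H01 averaged -3.11 ± 0.12 over the tissues, with head horn between -3.52 and -2.33, thoracic horn between -3.23 and -2.14, and legs between -4.58 and -3.18. Its horn and leg ranges overlapped, and the 2 differences were 1.05 ± 0.66 for head horn and 0.99 ± 0.57 for thoracic horn.

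The 3 clones called both ways were OtL009-G05, OtP003-H01 and OtL005-F04, with horns above abdomen and legs below it. OtL009-G05 stood at 0.99, 0.27, 0.66, 0.40 and 1.41 in head horn, 1.11, 0.03, 1.20, 0.03 and 1.09 in thoracic horn, against -0.56, -0.96, -0.56, -1.27 and -0.57 in legs. Arrays B and D were the lowest in every tissue, with a layout term of -0.78 (adjusted p = 0.00129 by limma, and 0.0397 with arrays blocked by letter). OtP003-H01 stood at 0.74, 0.50, 0.21, 0.88 and 1.67 in head horn, 0.72, 0.39, 0.47, 0.49 and 1.71 in thoracic horn, against -0.61, -0.46, -0.86, -0.54 and -0.66 in legs. OtL005-F04 had the smallest differences of the 3, at 0.97 ± 0.26 for head horn and 1.01 ± 0.14 for thoracic horn. In all 3 clones the horn arrays lay above 0 and the leg arrays below it, with no overlap.

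The 7 clones in neither class missed the calls that sort the classes, which does not mean that their ratios equalled abdomen. Legs of OtL012-F08, OtL010-C02 and OtL001-G10 narrowly missed the call (adjusted p = 0.056, 0.056 and 0.061 by limma). OtL002-B04 and OtL006-A04 had nearly the same ratios array by array (r = 0.97, root mean square difference 0.28). In both, head horn alone was called above abdomen (adjusted p = 0.0094 and 0.031 by limma). OtL002-B04 stood at -0.39, 2.10, 2.37, 0.82 and 0.51 in head horn, 0.19, 1.05, 0.97, 1.08 and 0.19 in thoracic horn, against -0.77, -0.47, -0.42, -0.09 and -1.47 in legs. OtL006-A04 stood at -0.65, 2.14, 2.38, 0.91 and -0.21 in head horn, 0.40, 1.19, 0.95, 1.04 and 0.21 in thoracic horn, against -1.01, 0.05, -0.29, 0.22 and -1.23 in legs. Head horn B and C carried most of their head horn difference, and head horn A lay within the leg range.

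OtL001-G10 met the rule with 4 of 5 positive pairs in each horn. Its ratio was -0.70, 0.74, 0.07, 0.73 and -0.68 in head horn, -0.58, 0.77, 0.87, 0.65 and -0.45 in thoracic horn, against -0.80, -1.45, 0.02, -1.39 and -0.25 in legs. The horns were above legs chiefly on B and D, and the ranges overlapped. On letters A, C and E alone, its head horn minus legs difference was -0.09.

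The mean over the 3 tissues and the dye layout term do not enter the differences that chose the clones. They come from the same arrays, however, and the same-letter condition of the rule bears on the spread that their tests use. Their calls are therefore a description, given beside the share over all clones. The mean over the 3 tissues was called above abdomen in 29 of the 73 clones, against 30.5% of all clones tested, and below abdomen in 24 of the 73, against 24.6% (limma, adjusted p under 0.05). Together 53 of 73 (72.6%) were called, against 55.1% of all clones tested. A random block for the letter gave 47 of the 73 and 42.5% of all clones tested. When only clones with all 15 values entered the fit, 55 of the 73 and 64.1% of all clones were called. In the fit without a block, over all clones tested, the 80 clones higher in legs had 27 calls above abdomen and 20 below it. The median absolute mean over the tissues was 0.96 in the 73 clones, 0.42 in the 80 clones higher in legs and 0.30 in all clones tested. This median was thus larger in the 73 clones than in either other set, which was described and not tested as a group. All clones tested include clones with empty values, which the 73 do not. No such median was taken over all complete clones. By direction, 39.7% of the 73 clones were called above abdomen and 32.9% below it. The calls above abdomen include the linked group of 9 clones, and whether these are copies of 1 transcript is not known.

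The dye layout term was called in 11 of the 73 clones, 6 positive and 5 negative, against 22.6% of all clones tested, and in 10 of the 80 clones higher in legs. With the letter as a random block, 1 of the 73 (OtL009-G05) and 5.32% of all clones tested were called. Without letter C, 24 of the 73 were called, a larger share than the 19.7% of all clones tested. Without letter E, 6 of the 73 were called, a smaller share than the 23.8% of all clones tested. The members' share relative to all clones therefore turned with the letter left out. A difference of this term between tissues was called in 0 of the 73 clones by limma for head horn against legs, thoracic horn against legs or horn against horn, compared with 1, 0 and 0 of all clones tested. At an unadjusted p under 0.05 the same 3 comparisons gave 2, 1 and 1 of the 73 (2.74%, 1.37% and 1.37%), against 2.30%, 1.82% and 2.14% of all clones tested. Dye layout and the pupae behind the letters cannot be told apart in this term.

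Within each dye layout the differences were recomputed. On letters A, C and E, 70 of the 73 clones kept a head horn difference of 0.8 or more and 71 a thoracic horn difference, and on letters B and D these numbers were 65 and 54. The medians were 1.17 and 1.24 on A, C and E, and 1.09 and 1.03 on B and D, for head and thoracic horn in that order. Both differences were positive in both layouts for 72 of the 73 clones, OtL001-G10 being the exception. These layouts were part of the choice, so the agreement is a description.

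By limma, head horn was called above legs in 40 of the 73 clones (3.1% of all clones tested), thoracic horn above legs in 47 (5.32%), and both in 39 (1.88%). The rule used these contrasts, and nothing is read from the counts. With the letter as a random block, both were called in 63 of the 73 clones and in 5.72% of all clones tested. Leaving out a letter gave 15 without D (0.590% of all clones tested), 18 without B (0.642%), 19 without E (0.694%), 27 without A (1.05%) and 31 without C (0.984%). By class, both were called in 13 of the 26 clones raised in horns, 23 of the 37 lowered in legs, 3 of the 3 that were both and 0 of the 7 that were neither. The 2 contrasts share the leg arrays.

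A measure that the choice did not use was obtained by leaving out each letter, choosing clones by the same rule on the other 4 letters with at least 3 of 4 pairs positive, and reading the differences on the letter left out. Between 79 and 88 clones were chosen each time, of which 55 to 63 belonged to the 73. On the letter left out, both differences were positive in 78.8% (A), 84.1% (B), 88.6% (C), 92.4% (D) and 94.0% (E) of the chosen clones, against 35.3% to 37.4% of all complete clones. Both reached 0.8 in 38.6% (B) to 54.2% (E) of them, against 3.61% to 5.50% of all complete clones. The left-out letters share tissue, dyes and abdomen with the letters that chose the clones, and letters of 1 dye layout stayed on both sides.

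The median on the left-out letter was smaller than on the choosing letters in 7 of 10 comparisons, 4 of 5 for head horn and 3 of 5 for thoracic horn. The largest shortfalls were on letters A and B. For letter A the left-out head horn median was 0.71, against 1.15 on the choosing letters, and for letter B the left-out thoracic horn median was 0.69, against 1.10. In the other 3 comparisons it was larger. For letter E the left-out head horn median was 1.25, against 1.10, for letter A the left-out thoracic horn median was 1.31, against 1.05, and for letter D it was 1.14, against 1.13. Over all complete clones the same-letter medians lay between -0.06 and 0.01.

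**Figure D5:**
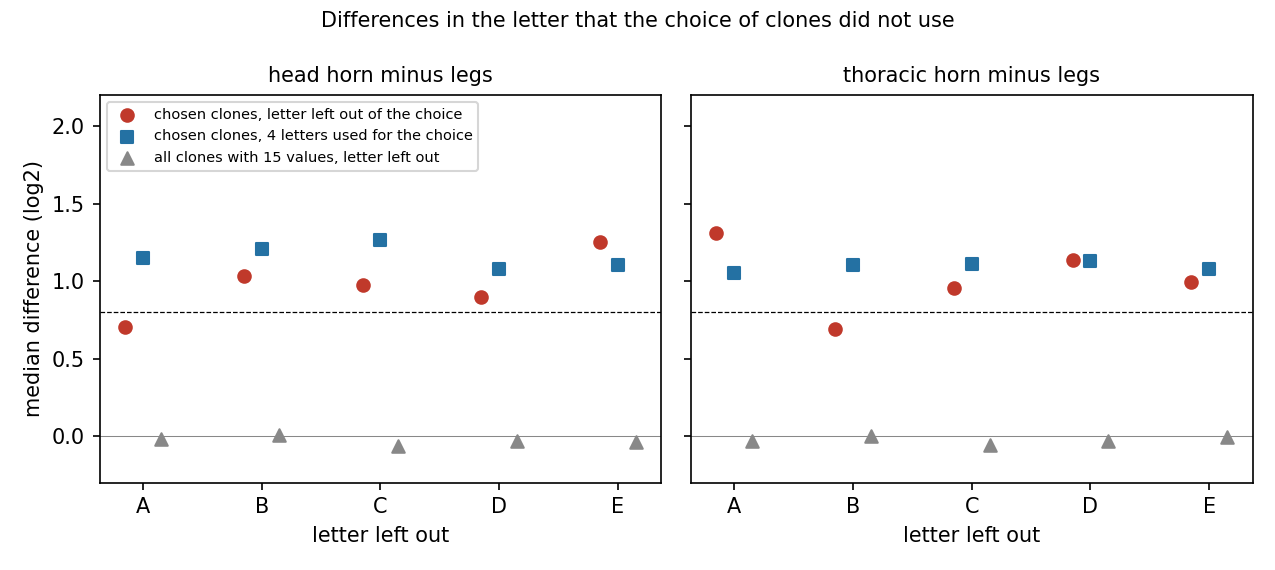
Median head horn minus legs and thoracic horn minus legs differences (vertical axis, log2) on each letter left out (horizontal axis), in red, beside the medians of the same clones on the 4 letters that chose them (blue) and of all complete clones on the letter left out (grey); the dashed line marks 0.8. The left-out medians lie between 0.69 and 1.31.

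Clones with the prefix OtL made up 46 of the 73 (63.0%), against 53.8% of all complete clones, whereas 25 of the 80 clones higher in legs (31.2%) had this prefix. The class raised in horns held 15 OtL and 11 OtP clones, and the class lowered in legs 24 and 13. No label says what the prefixes stand for, and these shares were not tested. Read from the clone names, the 73 clones came from 35 of the 40 plates, with at most 7 from 1 plate, OtL001 (7.78% of its 90 complete clones).

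At the border of the rule, OtL013-G10 and OtL001-E05 were just inside, with a smaller difference of 0.803 and 0.804, and OtL008-G10 and OtP016-H10 just outside at 0.799 and 0.796. For the horn-to-horn limit, OtL009-D02 and OtL007-H08 were just inside at -0.72 each, and OtL006-F08 and OtL007-G07 just outside at -0.86 and 0.86. Of the 93 clones with both differences at 0.8 or more, 17 failed on the difference between the horns. Another 3 failed on the same-letter pairs alone, namely OtL004-F05, OtP010-B02 and OtP013-E07.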

How the data were processed

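Per the labels, both channels of an array held labelled amplified RNA. The deposited log2 ratios, 1 per clone and array, were made by the authors with limma, per the submitters' processing notes. Their background correction and normalization are not given there, nor is the log base, and log2 was taken because limma works on it. Intensities were not used here, so signal over background is unknown and precision rests on the number of arrays. The members and lists were chosen with earlier results of these data known.

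Clones needed 3 or more values in each tissue, from both dye layouts, and the 3777 that met this were fitted with limma 3.58.1 in R 4.3.3 (lmFit, eBayes), with 1 coefficient per tissue and a shared dye layout term. Called means a Benjamini-Hochberg adjusted p under 0.05 over all clones tested. These p-values rest on the spread between arrays, which per the series design are 5 independent biological replicates for each tissue. Unless a letter block is named, arrays of 1 letter from different tissues were taken as independent. Where such arrays deviate together, the SE and p of a mean over the tissues come out too small. The same holds for the dye layout term. The SE and p of a difference between tissues then come out too large. Raised in both horns means both horns called positive and legs not called negative, lowered in legs means legs called negative and the horns not both called positive. Named clones are the first 8 of each of these classes by the smaller difference, the first 5 of both and the first 3 of neither, those nearest to the limits, the 3 most correlated pairs, the 2 highest and 2 lowest means over the tissues, and those with an array apart; a few others are named by their linked group, after their values were seen. The fit was tested on simulated data with known differences. The simulated arrays were independent, with no correlation within letters and no dye layout effect. The simulation therefore does not bear on how letters affect the p-values.

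The same letters occur in every tissue. All 15 pairs of same-letter arrays deviated together from their tissue means (r = 0.36 to 0.65), and also from the means within dye layouts (0.24 to 0.42), so letters pair the arrays on evidence from the data; as a random block the consensus correlation was 0.39. Alternatives were this block, no layout term, a layout term per tissue, centred arrays, complete clones only, robust eBayes, each letter left out, 1 dye layout alone, and other forms of the rule. Figures were drawn with matplotlib 3.10.9.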

Additional observations from a re-analysis of the deposited data

Results flagged for a closer look

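In 8 of the 73 clones 1 array of 5 stood apart from the others of its tissue by Dixon's test (critical value 0.71). OtP013-C07 stood at 4.97 on head horn D, with the other head horn arrays between 1.78 and 2.51. OtP003-H01 stood at 1.71 on thoracic horn E, with the others between 0.39 and 0.72. OtP005-D08 stood at -1.15 on thoracic horn D, with the others between 0.36 and 0.85. OtL015-H10 stood at -2.43 on thoracic horn A, with the others between -2.0 and -1.89. OtP018-B12 stood at 0.20 on head horn E, with the others between -0.95 and -0.68. OtL013-G02 stood at -1.82 on head horn A, with the others between -0.88 and -0.57. On legs C, OtP017-B03 stood at -1.53, with the others between -1.15 and -1.07, and OtP009-E02 stood at -0.083, with the others between -1.06 and -0.80. These were 8 of 219 tests of members, where chance gives about 1 in 20, and letters A, C, D and E had 2 each.

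The number of empty values on array D was also apart from the other arrays, at 295 in head horn (others 42 to 106), 321 in thoracic horn (43 to 120) and 329 in legs (32 to 96). Both horn-minus-legs differences were called in 39 members by the test of the difference between tissues, against 1.88% of all clones tested. The choice of members used these differences, so nothing is read from this count. Outside the complete clones, 3 of 595 clones with empty values met the rule on the values present, namely OtL019-E12, OtP005-G11 and OtP018-G10. The cause of these patterns was not tested.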

How the results depend on the processing

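Both horn-minus-legs differences were called in 39 members (1.88% of all clones tested) and in 63 with the replicate block (5.72%). On leaving out a letter the count was 15 (without D, 0.590%) to 31 (without C, 0.984%), with 18 without B and 19 without E. The dye layout term was called in 11 members, in 1 with the replicate block (5.32% of all clones tested), in 7 with a layout term per tissue (17.8%), and in 6 (without E, 23.8%) to 24 (without C, 19.7%) on leaving out a letter. Fewer arrays enter the fits without a letter. The cause of these changes was not tested. The block changed no other count of members by over 1.5 times. The rule chose 66 clones with 5 of 5 pairs, 76 with incomplete clones, 81 with plain means, 83 on B and D alone, 87 with centred arrays and 108 on A, C and E alone, all within 1.5 times of 73. Letters B and D alone kept 45 of the 73 and brought 38 other clones. Letters A, C and E alone kept 65 and brought 43 others. Plain means and centred arrays kept all 73 and brought 8 and 14 others. Over their alternatives, members raised in horns numbered 25 to 31 by test (8.39% to 15.3% of all clones tested). By horn means of 0.5 or more, without a test, they numbered 34. Those lowered in legs numbered 32 to 44 by test (15.2% to 21.3%), and those called for the mean of the tissues 47 to 55 (42.5% to 64.1%). OtL001-G10 changed sign in head horn minus legs on A, C and E alone (-0.090). The mean over the tissues changed sign in 4 clones not called for it, namely OtL001-F09 (0.02 in all, -0.0071 with centred arrays, -0.21 to 0.25 on leaving out a letter), OtL007-H08 (-0.45 to 0.087), OtL017-G01 (-0.59 to 0.012) and OtP005-D08 (-0.94 to 0.32). Of 444 values of named members for head horn minus legs 92 lost the call and 13 gained it, of 444 for thoracic horn minus legs 57 and 17, and of 370 for the mean over the tissues 22 and 9.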
